A study of Mus musculus with 6 samples.

Results

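The genes described here are 10 genes of the extrinsic, death receptor route to apoptosis and of the BCL2 family that guards mitochondria. They are the receptor genes Fas, Tnfrsf10b and Tnfrsf1a, the adaptor gene Fadd, the protease gene Casp8 and its inhibitor gene Cflar, the linker gene Bid, and the survival genes Mcl1, Bcl2l1 and Bcl2. They were chosen by symbol, and all 10 were measured, among 19938 genes in all. They are reported by 12 of 35556 probe sets, sets of short probes along a transcript that are summarised to 1 value, and 9 of the 10 genes have a single one. Of 6 arrays of liver RNA, 3 were from mice given interleukin-6 (IL-6) and 3 from mice given saline. All mice were 10-week-old males of the C57BL6 strain, fasted for 16 h, and their livers were taken 1 h after an intraperitoneal injection of 100 ng of IL-6 or of saline. Whole liver was used, so every value is an average over hepatocytes and all other liver cells. The labels do not say that each array came from an animal of its own, and p-values may reflect technical spread only.

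In the death receptor pathway a ligand clusters its receptor at the cell surface, the adaptor FADD joins the receptor to procaspase-8, and caspase-8 cuts itself active. The product of Cflar, c-FLIP, resembles caspase-8 and competes with it for the adaptor. In hepatocytes, which are highly sensitive to stimulation of Fas, the signal needs BID, which active caspase-8 cuts and which then opens mitochondria through BAX and BAK. MCL1, BCL-XL (the product of Bcl2l1) and BCL2 hold BAX and BAK in check, and mice whose hepatocytes lack either of the first pair show spontaneous hepatocyte death. IL-6 signals through gp130 and the transcription factor STAT3, and is known for protecting the liver from injury.

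Values are log2 expression values made by the authors with RMA, a method that corrects background, equalises the distributions of the arrays and combines the probes of a set. Array medians lay between 5.42 and 5.48. The IL-6 label was visible in Socs3, a feedback inhibitor of STAT3 signalling, at 9.57, 9.45 and 9.63 in the IL-6 arrays, against 6.61, 6.42 and 6.18 in the saline arrays. The median log2 difference of all genes was 0.0026, which RMA holds near 0 by its construction. Each difference below is IL-6 minus saline on the log2 scale with its standard error. It was tested with limma, with Benjamini-Hochberg adjustment over all 19938 genes and a threshold of 0.05.

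At 1 h after IL-6, Fas was the only member called, with a difference of 0.55 ± 0.09 on the log2 scale or 1.47-fold (limma adjusted p = 0.0323). That is 1 of 10 members called higher, where 0.386% of all genes were, and 0 of 10 called lower, where 0.0351% were. The other 9 did not pass, although all 10 differences were positive with all 6 arrays, as held for 51.1% of all genes (that of Fadd changes sign when either of 2 arrays is left out). The median of the 10 differences was 0.21. In 4 genes, Fas, Tnfrsf1a, Casp8 and Bcl2, all IL-6 values lay above all saline values, which was so for 6.15% of all genes. At an unadjusted limma p under 0.05 the count was 4 higher (Fas, Tnfrsf1a, Casp8 and Mcl1) and 0 lower, where 3.78% of all genes were higher and 2.83% lower. The genes were chosen with earlier results of these arrays known, so these shares describe them and are not a test of the group. With 3 arrays against 3, an exact permutation test of a single gene cannot give a p under 0.1.

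**Figure D1:**
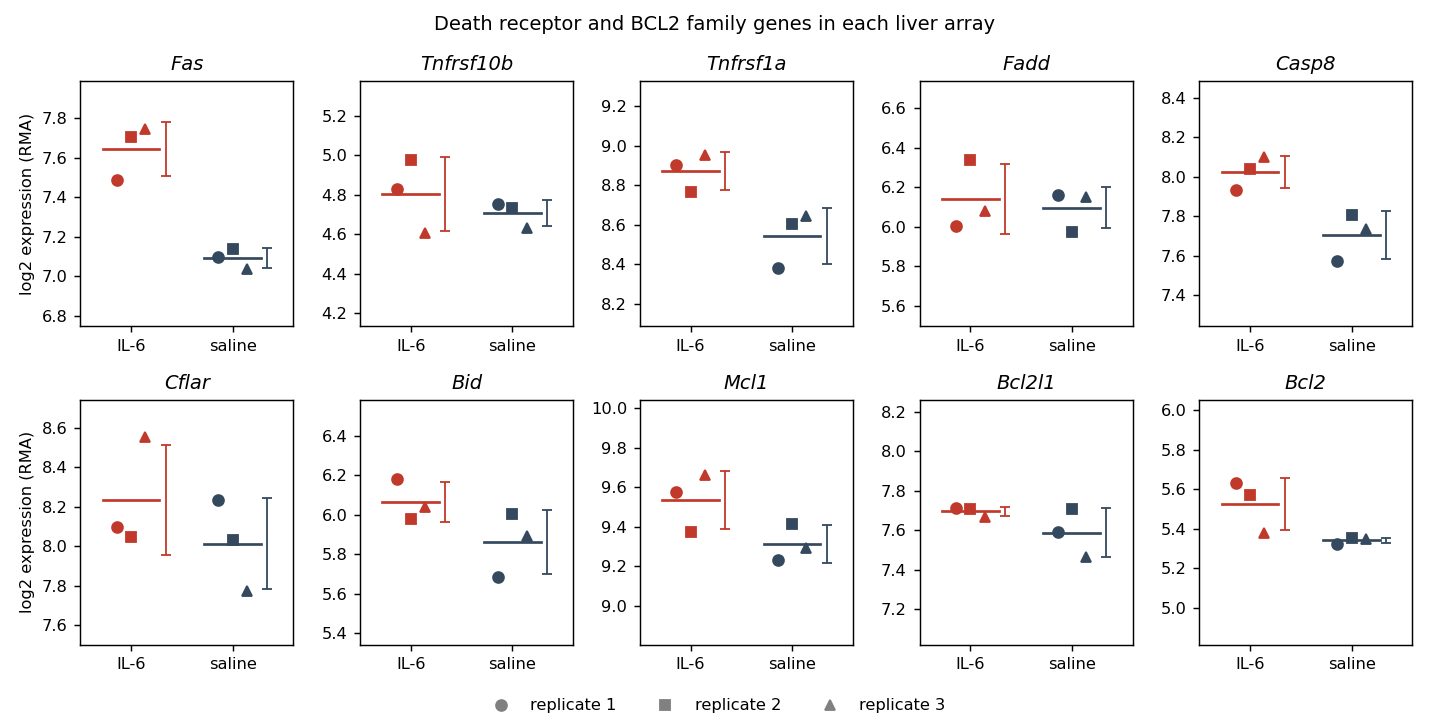
Log2 expression of the 10 genes in each array, IL-6 left of saline, with 1 marker shape per replicate number, a line at the group mean and a bar of 1 SD. All panels span the same number of log2 units; the groups are apart in Fas, Tnfrsf1a, Casp8 and Bcl2 and overlap in the other 6.

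Among the receptors, Fas (probe set 10462603), which binds FAS ligand, had 7.49, 7.70 and 7.75 in the IL-6 arrays, against 7.10, 7.14 and 7.04 in the saline arrays. The lowest IL-6 array, replicate 1, stood 0.35 above the highest saline array, replicate 2, and the 3 saline arrays lay close together. Group means were 7.64 ± 0.14 after IL-6 and 7.09 ± 0.05 after saline (SD, n = 3 each). The 95% interval of the fold ran from 1.28 to 1.68, so a doubling lay outside it. The call rested on nearly all of the arrays. It was lost when the replicate number was a block (limma adjusted p = 0.0849) and when every probe set was tested (limma adjusted p = 0.188), a fit that called 0.0478% of probe sets and 0 of the 12 of these genes. It was also lost when any 1 of the 5 arrays other than IL-6 replicate 1 was left out, with adjusted p in limma between 0.0965 and 0.154. The difference itself stayed between 0.50 and 0.58 in all those fits.

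Tnfrsf1a (10541895) encodes the main receptor of tumour necrosis factor, which can signal to survival through NF-kappaB or to death through caspase-8. It had 8.90, 8.77 and 8.95 in the IL-6 arrays, against 8.38, 8.61 and 8.64 in the saline arrays. The groups did not overlap, with a gap of 0.12 between IL-6 replicate 2 and saline replicate 3. The difference of 0.33 ± 0.09 (95% interval 0.12 to 0.54) did not pass (limma adjusted p = 0.403, unadjusted p = 0.00619). Tnfrsf10b (10416230), the mouse death receptor for the ligand TRAIL, had 4.83, 4.98 and 4.61 in the IL-6 arrays, against 4.76, 4.73 and 4.63 in the saline arrays. IL-6 replicate 3 was the lowest of all 6 arrays and IL-6 replicate 2 the highest, so the groups overlapped. Its difference was 0.10 ± 0.10 (95% interval -0.13 to 0.32), and moved with single arrays. Leaving out IL-6 replicate 2 gave 0.012, leaving out IL-6 replicate 3 gave 0.20, and leaving out saline replicate 3 gave 0.060. Its mean lay near the 25th percentile of gene means (4.59), so part of its signal may be background.

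Fadd (10569611), the adaptor, had 6.003, 6.34 and 6.08 in the IL-6 arrays, against 6.16, 5.98 and 6.15 in the saline arrays. IL-6 replicate 2 alone stood above the saline arrays, and the difference of 0.045 ± 0.10 (95% interval -0.19 to 0.28) turned negative without that array (-0.054) or without saline replicate 2 (-0.014). Casp8 (10346564), the initiator protease, had 7.94, 8.04 and 8.10 in the IL-6 arrays, against 7.57, 7.81 and 7.74 in the saline arrays. Here every IL-6 array was above every saline array, with a gap of 0.13. The difference of 0.32 ± 0.09, or 1.25-fold (95% interval of the fold 1.09 to 1.43), did not pass over all genes (limma adjusted p = 0.362, unadjusted p = 0.00486).

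Cflar was reported by 3 probe sets, which the platform table assigns to overlapping sets of transcripts without saying which protein form each reports. The brightest (10346562) had 8.10, 8.04 and 8.55 in the IL-6 arrays, against 8.24, 8.03 and 7.77 in the saline arrays. IL-6 replicate 3 stood apart from the other IL-6 arrays, which lay among the saline values. Its difference was 0.22 ± 0.15 (95% interval -0.13 to 0.56), the widest interval of the 10, and was 0.059 without IL-6 replicate 3, 0.099 without saline replicate 3 and 0.33 without saline replicate 1. The other Cflar probe sets had differences of 0.088 (10346551) and -0.023 (10497931), and IL-6 replicate 3 was the highest of the 6 arrays in both of them too. The 3 probe sets therefore gave no common direction for this gene. Cflar and Casp8 are neighbours on chromosome 1 of the mouse assembly GRCm38.p6. The starts used here are 91 kilobases apart, and that of Casp8 lies inside the annotated gene.

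Bid (10547531), which carries the signal from caspase-8 to mitochondria, had 6.18, 5.98 and 6.04 in the IL-6 arrays, against 5.69, 6.002 and 5.89 in the saline arrays. Saline replicate 2 lay just above IL-6 replicate 2, the only crossing between the groups. The difference was 0.20 ± 0.10 (95% interval -0.018 to 0.43, limma adjusted p = 0.795), and 0.12 without saline replicate 1.

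Among the survival genes, Mcl1 (10494306), which encodes a short-lived protein, had 9.57, 9.37 and 9.66 in the IL-6 arrays, against 9.23, 9.42 and 9.29 in the saline arrays. IL-6 replicates 1 and 3 were above all saline arrays, and IL-6 replicate 2 lay below saline replicate 2. The difference of 0.22 ± 0.09, or 1.17-fold (95% interval of the fold 1.01 to 1.35), did not pass over all genes (limma adjusted p = 0.716, unadjusted p = 0.0415). Bcl2l1 (10488655) had 7.71, 7.71 and 7.67 in the IL-6 arrays, against 7.59, 7.71 and 7.46 in the saline arrays. The 3 IL-6 arrays agreed closely (SD 0.024), the saline arrays spread more widely (SD 0.12), and saline replicate 2 reached the IL-6 level. Its difference was 0.11 ± 0.08 (95% interval -0.078 to 0.29), and was 0.045 without saline replicate 3 and 0.17 without saline replicate 2. Bcl2 (10357043), the founding member of the family, had 5.63, 5.57 and 5.38 in the IL-6 arrays, against 5.32, 5.35 and 5.35 in the saline arrays. The groups were apart by a gap of only 0.027, since IL-6 replicate 3 was close to the tightly grouped saline arrays (SD 0.015). Its difference was 0.19 ± 0.08 (95% interval -0.0029 to 0.38, limma adjusted p = 0.764).

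**Figure D2:**
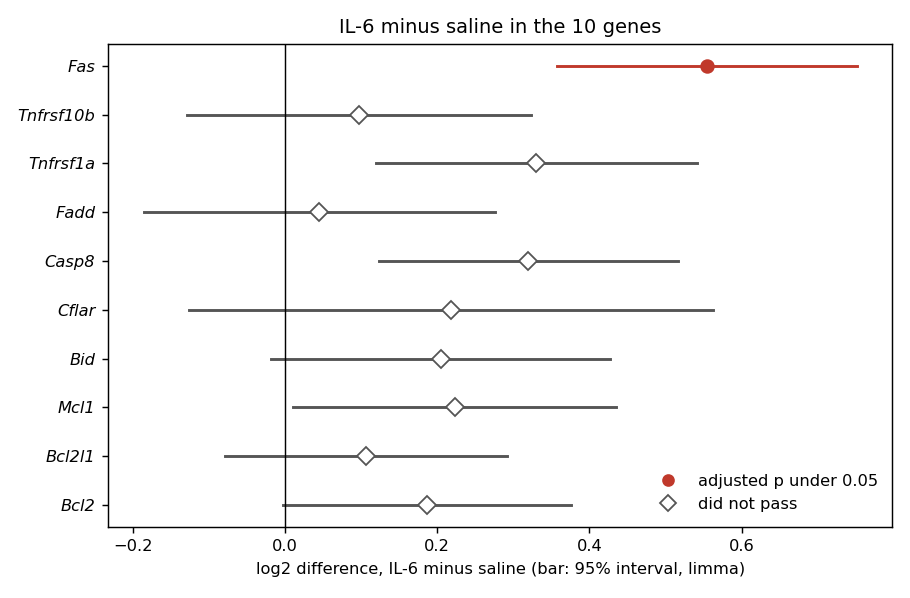
Log2 difference, IL-6 minus saline, of the 10 genes with its 95% interval from limma; the filled circle passed an adjusted p under 0.05 and open diamonds did not. Fas has the highest value, 0.55, and 6 of the 10 intervals hold 0.

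These intervals bound what the arrays leave possible. None of the 10 reaches 1, a 2-fold rise, and among the 9 genes that did not pass the highest upper bound is 1.48-fold, that of Cflar. Whether the difference in Fas exceeds that in the other members was not tested. Relative to the saline mean of each gene, the 10 genes averaged 0.21, 0.22 and 0.25 in IL-6 replicates 1, 2 and 3, against -0.022, 0.051 and -0.029 in saline replicates 1, 2 and 3. The IL-6 arrays were thus alike in this average, while their order differed between genes, in some by small gaps. IL-6 replicate 3 was the highest IL-6 array in 5 genes (Fas, Tnfrsf1a, Casp8, Cflar and Mcl1). IL-6 replicate 2 was the lowest IL-6 array in 4 genes (Tnfrsf1a, Cflar, Bid and Mcl1) and the highest in Tnfrsf10b and Fadd. Among saline arrays, replicate 2 was the highest in 6 of 10 genes. IL-6 replicate 3 and saline replicate 2 are also the 2 arrays that the second principal component of all genes (23.1% of the variance) set apart from the others. Without both, an alternative chosen after seeing the data, Fas had a difference of 0.53 (limma adjusted p = 0.318), and 0 of the 10 genes were called.

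**Figure D3:**
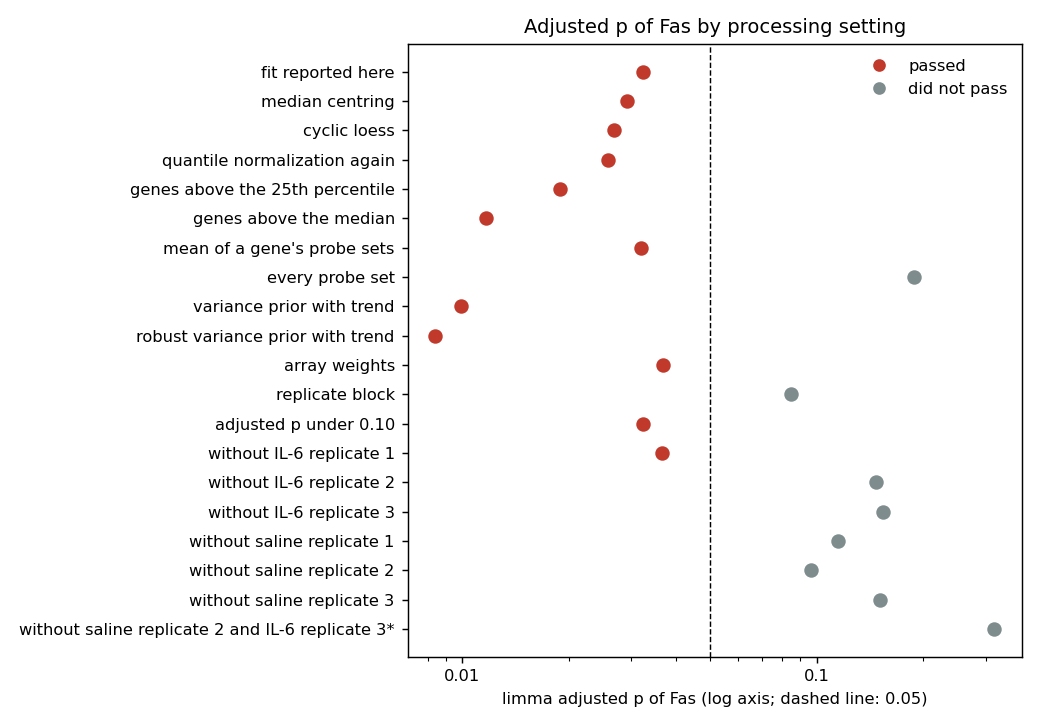
Limma adjusted p of Fas, on a log axis, under each processing setting; red points passed the threshold of that setting and grey points did not, and the asterisk marks the setting chosen after seeing the data. The call held in the fit reported here (0.0323) and was lost in 8 of 19 alternatives. Of these, 6 had fewer arrays, and the others were the replicate block and every probe set. The threshold of 0.10 was applied to the fit reported here, so it could not lose the call. Averaging a gene's probe sets left the Fas values as they were.

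The promoters of the 3 members with the smallest unadjusted p, and that of Mcl1 as the BCL2 family gene with the smallest p, are given as the 250 bases before the RefSeq start on GRCm38.p6, read 5′ to 3′ on the strand of the gene. Capitals mark letters that match the STAT motif TTCNNNGAA or the AP-1 motif TGANTCA, each of which reads the same on both strands.
Fas, chr19:34290409-34290658, plus strand: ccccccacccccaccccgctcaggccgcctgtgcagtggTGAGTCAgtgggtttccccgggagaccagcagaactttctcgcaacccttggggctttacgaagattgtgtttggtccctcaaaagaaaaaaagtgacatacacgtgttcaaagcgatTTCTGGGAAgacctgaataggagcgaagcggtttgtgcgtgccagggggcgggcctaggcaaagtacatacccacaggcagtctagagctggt
Tnfrsf1a, chr6:125349473-125349722, plus strand: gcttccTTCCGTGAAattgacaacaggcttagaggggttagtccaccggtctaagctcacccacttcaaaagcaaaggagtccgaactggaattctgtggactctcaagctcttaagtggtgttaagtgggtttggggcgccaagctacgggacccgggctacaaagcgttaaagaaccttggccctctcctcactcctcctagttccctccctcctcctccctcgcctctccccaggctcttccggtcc
Casp8, chr1:58802252-58802501, plus strand: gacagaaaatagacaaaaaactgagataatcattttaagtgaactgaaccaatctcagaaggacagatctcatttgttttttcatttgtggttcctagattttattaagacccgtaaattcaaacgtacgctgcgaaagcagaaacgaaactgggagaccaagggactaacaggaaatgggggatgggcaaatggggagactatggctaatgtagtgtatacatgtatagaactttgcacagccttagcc
Mcl1, chr3:95658471-95658720, plus strand: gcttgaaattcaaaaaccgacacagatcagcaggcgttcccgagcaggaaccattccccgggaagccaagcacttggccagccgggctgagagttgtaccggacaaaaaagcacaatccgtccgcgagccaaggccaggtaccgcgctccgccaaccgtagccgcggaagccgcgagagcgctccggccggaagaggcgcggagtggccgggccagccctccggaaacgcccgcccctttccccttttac

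The Fas promoter held 1 match to each of these motifs, TGAGTCA at position -211 and TTCTGGGAA at position -93, counted from the start to the first base of the match, and they do not overlap. The Tnfrsf1a promoter held TTCCGTGAA at position -244. The windows of Casp8 and Mcl1 held no match to either motif or to the NF-kappaB motif, which was searched on both strands too. RefSeq gave 11 windows of 300 bases (250 before to 50 after a start) for 9 of the 10 members, 3 of them for Bcl2l1, and Tnfrsf10b had none in the table used. The STAT motif was in 2 of the 11, the AP-1 motif in 1 and the NF-kappaB motif in 1, a window of Bcl2l1. Among all 32851 windows the shares were 8.30%, 7.81% and 8.46%. A match of letters is a description of the sequence and does not show that a factor binds there. The Casp8 window lies at a start inside the annotated gene, and its first start was not searched.

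Beyond the 10 genes, 9 lists of related cell death and survival genes held 86 measured genes, and 13 listed symbols were not analysed here. Of the 86, 1 was called higher and 0 lower, beside 0.386% and 0.0351% of all genes. Their median difference was 0.014, and 52 of 86 were positive, beside 51.1% of all genes. At an unadjusted limma p under 0.05, 5 were higher and 3 lower, beside 3.78% and 2.83% of all genes. All IL-6 values lay above all saline values in 8 of the 86 and below them in 5. Over all 19938 genes these counts were 1227 and 1093. Btg2, an antiproliferative gene that p53 induces and that is also an immediate-early gene, was the one called. It had 7.75, 7.54 and 7.57 in the IL-6 arrays, against 6.73, 6.66 and 6.13 in the saline arrays, a difference of 1.11 ± 0.15 (limma adjusted p = 0.0122). The groups were far apart, and saline replicate 3 was the lowest array. The call was lost without IL-6 replicate 1 (limma adjusted p = 0.0766) or 3 (limma adjusted p = 0.0665). It was also lost when every probe set was tested (limma adjusted p = 0.148). The same held without both saline replicate 2 and IL-6 replicate 3 (limma adjusted p = 0.147), the alternative chosen after seeing the data. Cdkn1a, Gdf15 and Trp53 were listed with the p53 target genes and were not analysed. Of the 11 p53 target genes measured, Btg2 included, 7 had positive differences, and the list median was 0.021. Of the other p53 target genes measured, none of the 10 passed, and those with the smallest p were below the saline level. Sesn2, a stress-induced inhibitor of mTORC1 signalling, had a difference of -0.37 ± 0.09 (limma adjusted p = 0.218), and the kinase gene Plk2 had -0.52 ± 0.14 (limma adjusted p = 0.383). Fas is itself a known p53 target.

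Ligands and other death receptors (12 measured, 0 called) had differences from -0.15 to 0.17. The largest were in Ltbr, the lymphotoxin beta receptor, at 0.17 ± 0.08, and in Tnfrsf1b, the other receptor of tumour necrosis factor, at 0.17 ± 0.09. The kinase gene Ripk1 was listed and not analysed. Of the adaptors and regulators of receptor complexes (14 measured, 0 called), Rnf31 had the smallest p. Its product is the catalytic subunit of the ligase LUBAC, which builds linear ubiquitin chains at the tumour necrosis factor receptor. Rnf31 had 7.57, 7.41 and 7.57 in the IL-6 arrays, against 7.20, 7.16 and 7.09 in the saline arrays. The groups did not overlap, and the difference of 0.37 ± 0.08 did not pass (limma adjusted p = 0.152), but passed when only genes above the median level were tested (limma adjusted p = 0.0492). Tnfaip3, which encodes the ubiquitin-editing inhibitor A20, had -0.17 ± 0.11.

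Downstream, none of 12 caspase, apoptosome and nuclease genes passed. Casp12 had 0.36 ± 0.17 at a level below the 25th percentile of genes, and Casp9, the initiator protease of the mitochondrial route, had -0.15 ± 0.07. The 10 BH3-only genes, whose products trigger BAX and BAK, had a median of -0.0087 and 0 calls. Bik was lowest at -0.20 ± 0.07 (limma adjusted p = 0.626), with all IL-6 values below all saline values, and Bbc3, which encodes PUMA, had -0.13 ± 0.08. Of 7 measured BAX, BAK and other BCL2 relatives 0 passed, and differences lay between -0.13 (Vdac2, a mitochondrial channel that binds BAK) and 0.057. A dimmer probe set of Vdac2 (10413138) had -0.18, with all IL-6 values below all saline values. It did not pass when every probe set was tested (limma adjusted p = 0.806). Bcl2l12 had -0.069 ± 0.07.

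All 6 genes of IAP proteins, which block caspases or steer receptor signalling to NF-kappaB, had positive differences with a median of 0.10, and 0 passed. Naip2, also a sensor of bacterial proteins, had 0.30 ± 0.09 (limma adjusted p = 0.467) and Birc3, which encodes cIAP2, had 0.17 ± 0.07 (limma adjusted p = 0.686). In both, every IL-6 value lay above every saline value. Of 8 necroptosis and pyroptosis genes 0 passed, with Zbp1 at 0.18 ± 0.10 and Casp4 at 0.12 ± 0.13. Of 6 genes that act on MCL1 turnover or on BCL2 family proteins 0 passed. Ier3, an early response gene whose product has been tied to MCL1, had 5.64, 5.71 and 5.36 in the IL-6 arrays, against 5.11, 5.23 and 5.13 in the saline arrays. The groups were apart, and its difference was 0.42 ± 0.10 (limma adjusted p = 0.269). Huwe1, a ubiquitin ligase that marks MCL1 for degradation, had 0.068 ± 0.07.

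**Figure D4:**
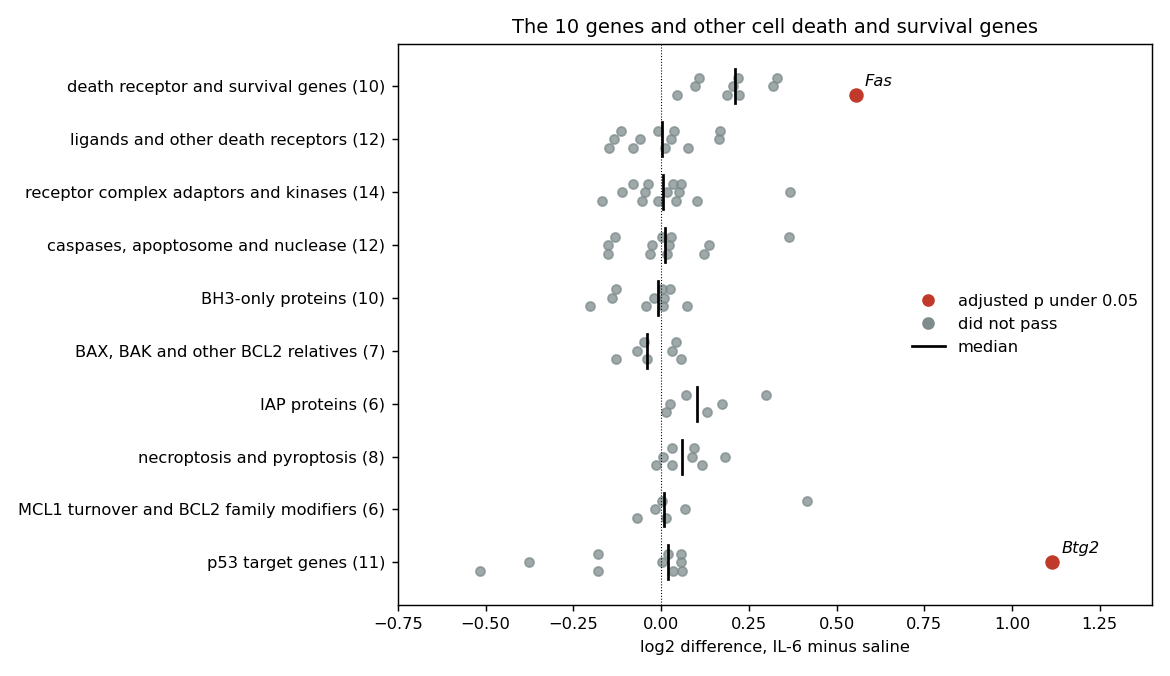
Log2 difference, IL-6 minus saline, of each gene in the 10 described and in 9 lists of related genes, with the number measured in brackets; vertical bars are medians, and red, named points passed an adjusted p under 0.05. The median is 0.21 for the 10 genes and lies between -0.041 and 0.10 in the lists, where Btg2 is the called gene.

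Fas, Tnfrsf1a and Bcl2 are also made by immune cells, and in whole liver a change in cell numbers and a change in RNA per cell cannot be told apart. Kupffer cell and macrophage markers had positive differences in 8 of 9 genes with 0 called, and averaged 6.33 to 6.63 in the IL-6 arrays, against 6.25 to 6.43 in the saline arrays. T and NK cell markers were positive in 2 of 8 with 0 called, at 4.28 to 4.49 in the IL-6 arrays, against 4.36 to 4.53 in the saline arrays, and 5 of the 8 lay below the 25th percentile. B cell markers were positive in 2 of 5, at 4.38 to 4.40 in the IL-6 arrays, against 4.38 to 4.47 in the saline arrays. Neutrophil markers were positive in 4 of 9 with 1 called, S100a8 at 0.65, while Ly6g had -0.27 (limma adjusted p = 0.655). The list averaged 3.91 to 4.11 in the IL-6 arrays, against 3.93 to 4.003 in the saline arrays, and 7 of the 9 lay below the 25th percentile. Endothelial markers were positive in 6 of 7, at 7.47 to 7.69 in the IL-6 arrays, against 7.51 to 7.62 in the saline arrays. Stellate cell and fibroblast markers were positive in 6 of 7 at 7.01 to 7.09 in the IL-6 arrays, against 6.91 to 7.05 in the saline arrays. The 4 measured cholangiocyte markers were all positive with 0 called, and their ranges were apart, at 5.86 to 5.92 in the IL-6 arrays, against 5.68 to 5.78 in the saline arrays. Without Sox9, which had the largest of the 4 differences (0.41), the other 3 averaged 5.37 to 5.46 in the IL-6 arrays, against 5.27 to 5.48 in the saline arrays, so the ranges overlapped. Hepatocyte markers, the brightest of these lists, were positive in 5 of 7 at 12.67 to 12.71 in the IL-6 arrays, against 12.63 to 12.72 in the saline arrays. The 2 erythroid markers ranged from 6.85 to 7.07 in the IL-6 arrays, against 6.80 to 7.17 in the saline arrays. The part of these markers in the differences of the 10 genes was not tested.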

How the data were processed

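The deposited log2 values, made with RMA by the authors per the submitters' processing notes, were used as they were. The RMA version and its settings, and the build, were not stated. Quantile normalization inside RMA can hide a shift common to most genes and compress fold values. The table held 35556 probe sets, of which 21789 have exactly 1 symbol in the platform table. For a gene with several, the brightest by its mean over the 6 arrays stood for the gene, giving 19938 genes with no filter on level. IL-6 was compared with saline with lmFit and eBayes of limma 3.58.1 in R 4.3.3, two-sided, and checked on simulated data. Standard errors of log2 differences had a median of 0.089, and array number limits the precision. The 10 genes, the lists and the markers were chosen with earlier results of these data known. Named list genes are those called and otherwise the 2 with the smallest p, with Socs3 as a check of the labels. Sesn2, Plk2, S100a8, Ly6g and Sox9 were named after their values were seen. Protein sequences, listed for comparison, were not used here. Promoter sequences are RefSeq's on GRCm38.p6. Alternatives covered normalization, level filters, probe set choice, the variance prior, array weights, a replicate block, the threshold and each array left out. Figures used matplotlib 3.10.9 in Python 3.11.15.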

Additional observations from a re-analysis of the deposited data

How the results depend on the processing

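With every probe set tested, 16 were higher and 1 lower in place of 77 and 7, and 0 of the 10 genes and 0 of the list genes were called, with Fas at the same difference of 0.55. That fit adjusted for 35556 features in place of 19938. At an adjusted p under 0.10, 12 genes were lower. Testing only genes above the median called 2 list genes. Leaving out 1 array gave 45 to 67 higher and 3 to 5 lower genes, 0 to 1 called among the 10 genes, 0 to 1 among list genes, and a Fas difference of 0.50 to 0.63. Without saline replicate 2 and IL-6 replicate 3, chosen after seeing the data, 31 were higher and 2 lower, 0 of the 10 genes and 0 list genes were called, and Fas had 0.53; that fit has 2 arrays against 2. Fadd ran from -0.054 to 0.11 when 1 array was left out, and was negative without IL-6 replicate 2 (-0.054) or saline replicate 2 (-0.014). The other 167 of 169 results for the 9 members that did not pass kept their sign and stayed unpassed.

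Saline and IL-6 arrays share only replicate numbers: the deviations of same-numbered arrays from their group means correlated at 0.076, -0.12 and -0.087. Among all pairs of an IL-6 and a saline array, the highest value was 0.18, for IL-6 replicate 3 with saline replicate 2. The replicate block does not join those arrays. With the replicate block, 59 genes were higher and 6 lower, and 0 of the 10 genes were called, with Fas at 0.55 (limma adjusted p = 0.0849). The cause of each lost call was not tested.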
